A study of Homo sapiens with 6 samples.

Results

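Elastic fibres give stretch to vessels, lung, skin and other tissues, and lysyl oxidases are the copper enzymes that crosslink them. The 10 genes described here were LOX, LOXL1, LOXL2, LOXL3 and LOXL4, which encode the lysyl oxidase family, and FBN1, FBN2, ELN, FBLN5 and EFEMP1, which encode fibre components and fibulins. All 33 probe sets whose only gene symbol was one of these were taken, of 49395 probe sets on the array, and they stand for 10 of 18132 genes. The genes were chosen by function, but with earlier differences of these same arrays known, among them lower FBN1 and LOX and higher EFEMP1 in clones than in control. Their levels and differences are therefore given as a description, and no p-value is given for any of them.

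RNA came from U87, an established human glioma line, and was hybridised to 6 Affymetrix PrimeView arrays. The control array (n = 1) held cells stably transfected with the empty pcDNA vector. The IL-33 arrays (n = 3) each held 1 of 3 clones with full-length human IL-33, numbered 3, 5 and 9, and the ΔNLS arrays (n = 2, IL33 DNLS in the labels) held clones 3 and 4 with IL-33 from which the nuclear localization signal was deleted. The paper describes this deletion as also crippling a chromatin-binding motif of IL-33. Stable transfectants were selected with G418. Each clone is a line of its own, so the spread within a construct holds differences between clones together with technical variation. Nothing in the sources used here says whether the control was a clone or a pool.

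An elastic fibre has a core of crosslinked elastin, the product of ELN, on a scaffold of microfibrils built from the fibrillins FBN1 and FBN2. Fibulin 5 (FBLN5) brings elastin, microfibrils and lysyl oxidases together. EFEMP1 encodes fibulin 3, a related secreted glycoprotein that has been described as highly expressed in gliomas. Lysyl oxidases oxidise lysine side chains of elastin and of fibrillar collagens, and the aldehydes formed then join into crosslinks. LOX and LOXL1 are made with a propeptide that is cut off, whereas LOXL2, LOXL3 and LOXL4 carry scavenger receptor domains in front of the catalytic domain.

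Values are log2 levels as normalized by the authors. A level of 4.80, the 95th percentile of the mean levels of 340 olfactory receptor genes, served as background. The construct gene IL33 stood at 3.46 in the control, at 8.38 in IL-33 clone 3, 6.40 in clone 5 and 9.50 in clone 9, and at 6.50 and 6.62 in ΔNLS clones 3 and 4. With the values of each array put in order, control and IL-33 arrays differed by at most 0.0230 on average, but by 0.154 to 0.161 from either ΔNLS array, so a difference that involves ΔNLS cannot be told apart from one between those sets of arrays. Over all genes the median difference was 0.04 in IL-33 against control, -0.09 in ΔNLS against control and 0.13 in IL-33 against ΔNLS. Of 10 glial markers, GFAP, SOX10, NES, VIM and SLC1A3 were above background on all arrays, while S100B, OLIG1 and AQP4 were above it on none. Of 10 fibroblast and mural markers 5 were above background on all arrays and COL3A1, DCN and THY1 on none. The levels of these 10 summed to 65.0 on the control array, to 56.5 to 62.0 over IL-33 clones and to 59.2 to 61.4 over ΔNLS clones, and their part in the results was not tested. Of 5 endothelial markers, VWF and KDR were above background on all arrays and CDH5 on none. The levels of these 5 summed to 24.29 on the control array and to 26.68 to 27.96 over IL-33 clones. Over ΔNLS clones they summed to 23.08 to 23.39, and their part in the results was not tested. Of 6 leukocyte markers measured, PTPRC, CD14, ITGAM and CD3E were above background on no array and CD68 on all. In such cultures a lower level per cell and fewer cells with the RNA cannot be told apart.

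Of the 10 genes, 6 were above background on all arrays (LOX, LOXL1, LOXL2, LOXL3, FBN1 and ELN), EFEMP1 and FBN2 on some, and LOXL4 and FBLN5 on none. Each gene is represented by its probe set with the highest mean, and the others are compared further on. Levels of different genes were not compared, since probe sets bind with different strength.

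**Figure D1:**
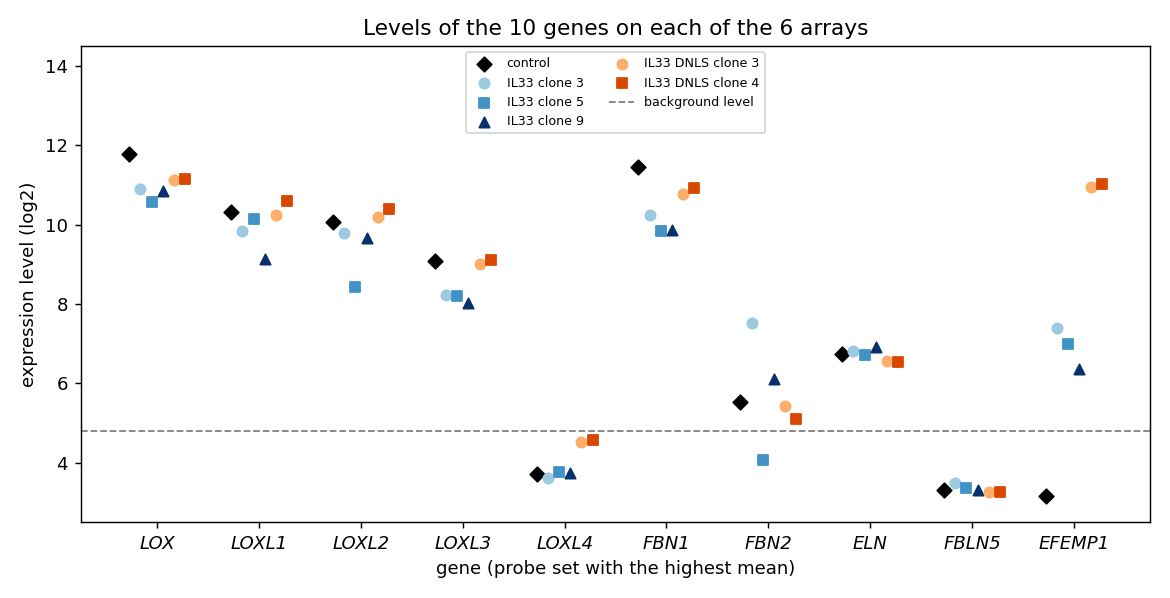
Log2 expression level (y axis) of the 10 genes (x axis) on each of the 6 arrays, 1 point per array, with the control in black, IL-33 clones in blue, ΔNLS clones in orange and the background level of 4.80 dashed. EFEMP1 stands at 3.16 for the control, between 6.36 and 7.40 for IL-33 clones and at 10.93 and 11.02 for ΔNLS clones.

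LOX, the founding lysyl oxidase, was at 11.79 in the control. IL-33 clones 3, 5 and 9 had levels of 10.90, 10.58 and 10.84, and ΔNLS clones 3 and 4 of 11.13 and 11.15. The control thus lay above all clones, and the IL-33 clones lay below both ΔNLS clones. The mean of the IL-33 clones was 2.02-fold lower than the control, a log2 difference of -1.02 ± 0.14 (standard error of the fit, 3 clones against 1 array). In ΔNLS the difference was -0.65 ± 0.15 (2 clones against 1 array), or 1.57-fold lower.

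LOXL3, a lysyl oxidase known from cartilage and craniofacial development, read 9.07 in the control, against 8.21, 8.21 and 8.03 in IL-33 clones 3, 5 and 9. In the ΔNLS clones it was at 9.00 and 9.10, one on each side of the control. The IL-33 clones spanned 0.18 and lay below every other array. The mean difference from control was -0.92 ± 0.13 in IL-33, or 1.89-fold lower, and -0.02 ± 0.13 in ΔNLS. LOXL3 therefore separated the constructs (-0.90 ± 0.10 in IL-33 against ΔNLS) but not ΔNLS from control.

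LOXL2, which is also known for effects on cell invasion and on histones, was at 10.07 in the control, at 9.78, 8.43 and 9.67 in the IL-33 clones and at 10.19 and 10.40 in the ΔNLS clones. Clone 5 stood apart, with a difference of -1.64 from the control, and the IL-33 clones spanned 1.35. All of them were lower than the control, and both ΔNLS clones were higher. The mean differences from control were -0.78 ± 0.52 and 0.22 ± 0.55, each with a wide error from the spread of the IL-33 clones.

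LOXL1, which is needed for elastic fibre renewal and binds fibulin 5, was at 10.32 in the control. The IL-33 clones were at 9.84, 10.13 and 9.14, and here clone 9, not clone 5, was lowest. The ΔNLS clones, at 10.25 and 10.60, lay on either side of the control. The mean differences were -0.62 ± 0.38 and 0.10 ± 0.40. LOXL1 and LOXL2 thus each had all 3 IL-33 clones below the control, in unlike order. How many of all genes had all 3 IL-33 clones below the control was not counted. Of all genes 42.7% had a lower mean in the IL-33 clones than in the control. Nothing is therefore read from this pattern in any of the 10 genes.

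LOXL4 lay below background on every array. The control read 3.72, the IL-33 clones read 3.62, 3.76 and 3.75, and the ΔNLS clones read 4.52 and 4.56. The ΔNLS difference of 0.83 ± 0.11 is thus between signals that were not above background, and no fold is given for it.

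FBN1, which encodes the main fibrillin of adult microfibrils and is mutated in Marfan syndrome, was at 11.44 in the control. The IL-33 clones were at 10.24, 9.84 and 9.87, and the ΔNLS clones at 10.77 and 10.92. All 5 clones lay below the control. The difference was -1.46 ± 0.18 in IL-33, or 2.76-fold lower, and -0.60 ± 0.19 in ΔNLS, or 1.52-fold lower. On this probe set the IL-33 clones were also below the ΔNLS clones, by 0.86 ± 0.14.

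FBN2, the fibrillin of developing tissue, varied mainly between the IL-33 clones. It was at 5.53 in the control, 7.51 in clone 3, 4.06 (below background) in clone 5 and 6.12 in clone 9. The ΔNLS clones were at 5.43 and 5.11. The IL-33 clones spanned 3.45 and enclosed the other arrays, whereas the median span over 12498 genes above background on at least 1 array was 0.24. The mean difference from control was 0.37 ± 1.18 in IL-33 and -0.26 ± 1.26 in ΔNLS.

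ELN itself moved little. It was at 6.74 in the control, 6.80, 6.70 and 6.92 in the IL-33 clones and 6.56 and 6.53 in the ΔNLS clones, a range of 0.39 over all arrays. The differences from control were 0.07 ± 0.13 and -0.20 ± 0.14. FBLN5 was below background throughout, between 3.27 and 3.49, and both ΔNLS arrays gave the same value of 3.27.

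EFEMP1 had the widest range of the 10 genes, 7.87 between its lowest and highest array. In the control it was at 3.16, below background. IL-33 clones 3, 5 and 9 had levels of 7.40, 6.995 and 6.36, and the ΔNLS clones were at 10.93 and 11.02. The 3 groups did not overlap, with the control lowest and ΔNLS highest. With the control set to the background level, EFEMP1 was on this probe set at least 4.34-fold higher in the IL-33 clones and at least 72.4-fold higher in the ΔNLS clones. The measured differences were 3.76 ± 0.37 and 7.82 ± 0.39. Between the constructs, where both sides were above background, it was 16.7-fold lower in IL-33 than in ΔNLS (-4.06 ± 0.29). EFEMP1 and LOXL3 lie on chromosome 2, where the 828 genes above background on at least 1 array had median differences from control of -0.07 to -0.10 in the IL-33 clones and -0.31 and -0.35 in the ΔNLS clones. FBLN5 lies on chromosome 14, where these medians were -0.27 to -0.35 and -0.44 and -0.48.

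In the fit across all genes (limma, adjusted p under 0.05) these counts came out as follows, and nothing is read from them. In IL-33 against control 1 of the 10 genes was called higher (EFEMP1) and 3 lower (LOX, LOXL3 and FBN1), where 3.65% of all genes were called higher and 4.00% lower. In ΔNLS against control 2 were called higher (LOXL4, below background, and EFEMP1) and 1 lower (LOX), where 14.8% of all genes were higher and 23.5% lower. In IL-33 against ΔNLS 0 were called higher and 5 lower (LOX, LOXL3, LOXL4, FBN1 and EFEMP1), where 31.4% of all genes were higher and 16.1% lower. At a p under 0.05 before adjustment 1 of the 10 was higher there (ELN), where 10151 of all 18132 genes had such a p in either direction. The median difference of the 10 genes was -0.31, -0.03 and -0.78 in these comparisons. The comparisons share arrays and are not independent of each other.

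The counts depended on single arrays. In IL-33 against control no gene of the genome was called without ΔNLS clone 3 or without ΔNLS clone 4, although neither is part of that comparison, and at a p under 0.05 before adjustment there were 4444 and 4441 genes, with 4 of the 10 among them each time. When IL-33 clone 9 was left out, EFEMP1 alone of the 10 was called there, and the share of all genes called was 1.88%, against 7.65% with all arrays. In IL-33 against ΔNLS 9 of the 10 were called without IL-33 clone 5, where 46.5% of all genes were called. Without ΔNLS clone 3 it was 3 of the 10, as it was without clone 4, and each time 26.1% of all genes were called, against 47.5% with all arrays. The genes added without IL-33 clone 5 were LOXL1 (-0.93), LOXL2 (-0.57), FBN2 (1.54) and ELN (0.32), of which the first 2 were lower and the others higher in IL-33. FBN2 was -0.18 in that comparison without IL-33 clone 3.

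**Figure D2:**
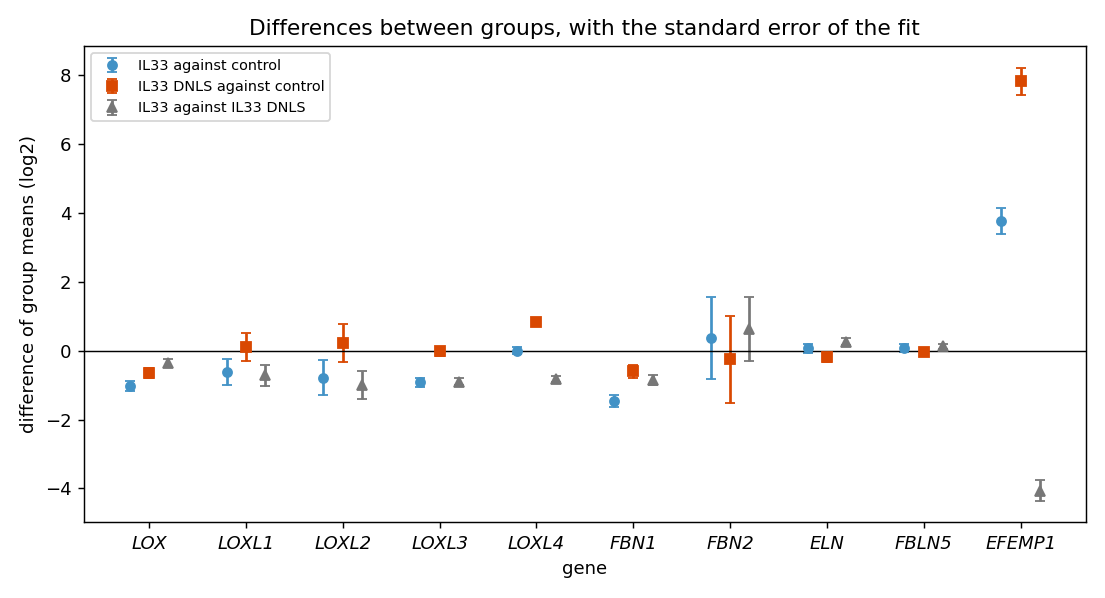
Difference of group means in log2 units (y axis) for each of the 10 genes (x axis) in the 3 comparisons, with bars for the standard error of the fit. EFEMP1 lies far above 0 against control in both constructs (3.76 and 7.82), LOX and FBN1 lie below 0 in both, and LOXL3 lies at -0.92 in IL-33 and -0.02 in ΔNLS.

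The other probe sets of a gene are a further reading of the same RNA on the same arrays, not a replicate. Of the 33 probe sets 19 were above background on all arrays, 8 on some and 6 on none. In Affymetrix names, an ending _a marks probes shared by transcripts of 1 gene, _s probes that match transcripts of several genes, and _x probes that may bind unrelated sequences. The probe set used for EFEMP1 and that used for FBN2 end in _s, and that used for ELN ends in _x.

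All 4 EFEMP1 probe sets had the same order of arrays, with the control lowest, then IL-33 clones 9, 5 and 3, then the ΔNLS clones. The lowest of the 4, 11715846_at, read 3.20 in the control, 5.61, 5.21 and 4.38 (below background) in the IL-33 clones and 8.95 and 9.00 in the ΔNLS clones. The measured differences of the 4 from control ran from 1.87 to 5.21 in IL-33 and from 5.78 to 9.24 in ΔNLS. Those between the constructs, which do not rest on the control, were close together, from -3.90 to -4.08. With the control set to background, the lower bounds of the 4 ran from 1.20-fold to 5.15-fold in IL-33. In ΔNLS they ran from 18.0-fold to 83.9-fold.

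For LOX, all 6 probe sets had every IL-33 clone below the control, with differences of -0.32 to -1.91. In ΔNLS they did not go one way. 3 of them had both ΔNLS clones below the control and 2 had both above, and the range ran from -0.77 to 0.90. On 11728199_s_at the control was at 8.03, the IL-33 clones at 7.71, 7.69 and 7.72 and the ΔNLS clones at 9.00 and 8.85. On 11758995_at the control was at 10.43, the IL-33 clones at 8.83, 8.08 and 8.64 and the ΔNLS clones at 9.52 and 9.80. The lower LOX level in ΔNLS is therefore a statement about some probe sets, including the one used, while IL-33 lay below ΔNLS on all 6.

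For FBN1, every clone of both constructs was below the control on all 5 probe sets. The IL-33 difference was -1.46 to -2.19. The ΔNLS difference ran from -0.60 to -3.73, and so the order of the constructs turned with the probe set. On 11720508_at the ΔNLS clones, at 5.62 and 5.60, lay below the IL-33 clones, at 7.67, 6.85 and 6.93, and far below the control at 9.34. On the probe set used for the gene they lay above the IL-33 clones. With the mean of all probe sets the constructs differed by -0.01.

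The second LOXL3 probe set, 11759968_at, read 5.42 in the control, 3.49, 3.20 and 3.43 in the IL-33 clones and 5.23 and 5.63 in the ΔNLS clones. With the IL-33 clones set to background this was at least 1.54-fold lower in IL-33 than in the control. All 4 LOXL2 probe sets had the 3 IL-33 clones below the control, clone 5 lowest, and both ΔNLS clones above it. Both FBN2 probe sets that reached above background had clone 3 highest and clone 5 lowest. The 3 ELN probe sets disagreed in ΔNLS, where the difference ran from -0.77 to 0.59.

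**Figure D3:**
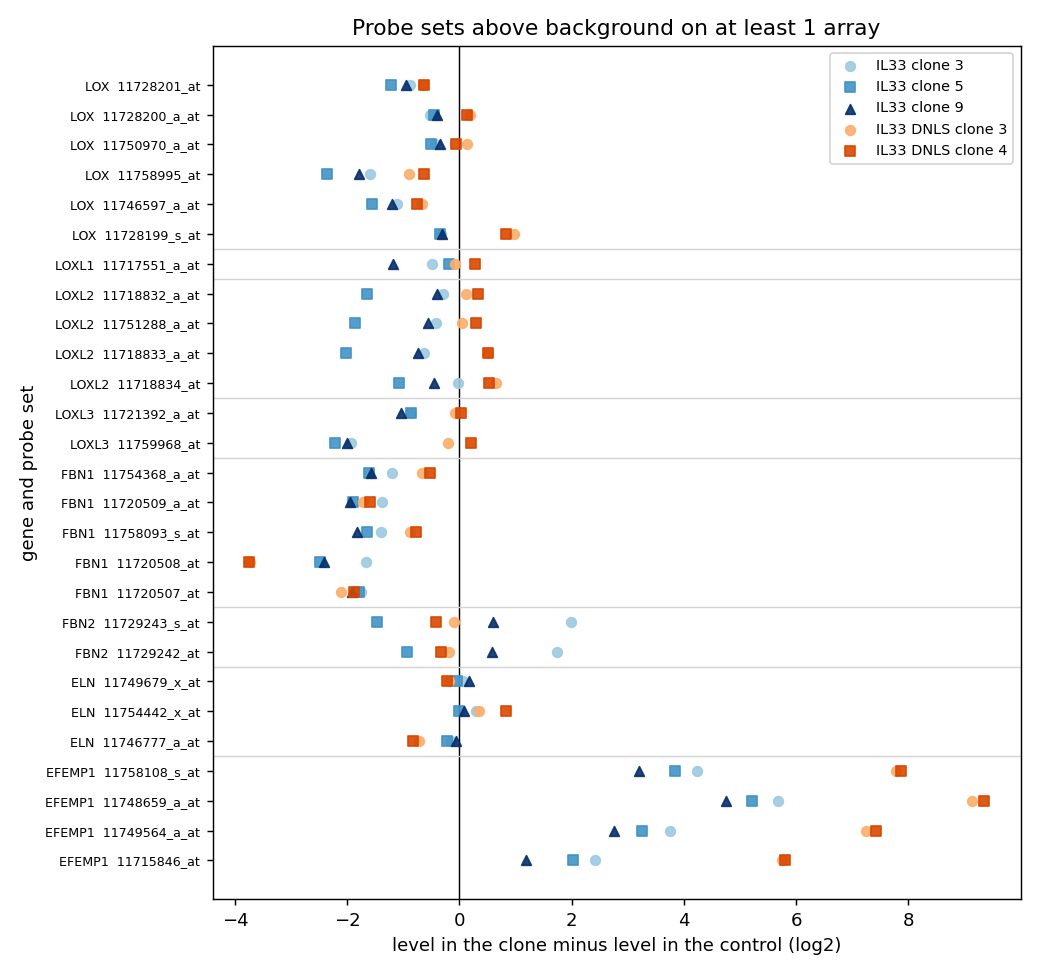
Level of each clone minus that of the control in log2 units (x axis) on the 27 probe sets that were above background on at least 1 array (y axis, grouped by gene), 1 point per clone. The 6 LOX, 4 LOXL2, 2 LOXL3 and 5 FBN1 probe sets have all IL-33 points left of 0, and the 4 EFEMP1 probe sets have all points right of it.

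On the probe set used for each gene, over the 6 arrays, which share constructs, LOX and FBN1 had the most alike levels of any 2 of the 10 genes (Pearson r = 0.94). LOXL3 with FBN1 followed (0.92). The other FBN1 probe sets had r of 0.27 to 0.99 with the one used, and those of LOX 0.34 to 0.99. Other pairings of probe sets can therefore give other values, and they were not compared. LOX with LOXL3 (0.77) came after LOXL4 with EFEMP1 (0.85) and LOXL1 with LOXL3 (0.82). On the probe sets used, EFEMP1 was not like either fibrillin (-0.07 with FBN1 and -0.12 with FBN2). Among 3589 candidate genes with a range of at least 1, the most alike levels to LOX were those of APOH and USP37 (r = 0.997 and 0.995), and to FBN1 those of ATP6V1G2 and WNT5B (0.997 and 0.993). LOXL3 was most like GBE1 and POLD4 (0.993 and 0.991), LOXL2 most like MYBL2 and LRPAP1 (0.999 and 0.990), and LOXL1 most like CNN3 and LMNA (0.976 and 0.971). EFEMP1 was most like IFFO1 and HEY2 (0.997 and 0.994), and FBN2 most like CDCA7 and RPL27A (0.906 and 0.891). These are the highest of 3589 values over 6 points each and are given as a description.

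The sequence before the start is shown for LOX, FBN1 and LOXL3, the genes called lower in IL-33 against control. LOXL1 and LOXL2 also had all IL-33 clones below the control but were not called there. Each line gives 250 bases up to the base before a RefSeq start of the gene (the first start listed, GRCh38.p14, minus strand, 5′ to 3′). The places are chr5:122078260-122078509 for LOX, chr15:48644971-48645220 for FBN1 and chr2:74553943-74554192 for LOXL3. Capitals mark matches, on either strand, of ACGTG or GCGTG, the core of the element bound by hypoxia-inducible factors, and of GGGCGG, the GC box bound by Sp1.

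LOX: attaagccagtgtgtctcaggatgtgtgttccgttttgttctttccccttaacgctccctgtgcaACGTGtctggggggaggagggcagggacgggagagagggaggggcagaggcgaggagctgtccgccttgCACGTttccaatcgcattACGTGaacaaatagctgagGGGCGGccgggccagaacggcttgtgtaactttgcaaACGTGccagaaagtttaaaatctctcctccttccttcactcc
FBN1: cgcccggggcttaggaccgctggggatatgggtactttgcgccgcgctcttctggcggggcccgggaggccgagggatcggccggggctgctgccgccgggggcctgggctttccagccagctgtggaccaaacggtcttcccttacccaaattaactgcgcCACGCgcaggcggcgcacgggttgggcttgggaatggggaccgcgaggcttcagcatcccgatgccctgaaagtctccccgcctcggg
LOXL3: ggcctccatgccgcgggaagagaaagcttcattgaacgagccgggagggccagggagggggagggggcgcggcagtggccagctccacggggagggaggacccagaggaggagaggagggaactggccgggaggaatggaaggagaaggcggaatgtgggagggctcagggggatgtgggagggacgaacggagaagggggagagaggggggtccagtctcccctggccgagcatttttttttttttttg

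The LOX window held 4 matches of ACGTG, the nearest 38 bases before the start, and 1 of GGGCGG. Of 27305 windows of that length, 1 a gene, 18.7% held ACGTG and 0.714% held it at least 4 times. The FBN1 window held 1 match of GCGTG, as 31.9% of windows did, and the LOXL3 window held no match of these motifs (42.3% of windows held GGGCGG). The TATA box (TATAAA), which 11.1% of windows held, was in none of the 3 printed windows. The AP-1 site (TGANTCA, 6.6% of windows) and the consensus of NF-κB sites (9.57%) were in none of them either. RefSeq lists further starts for LOX and LOXL3. The 2 other LOX windows each held 1 ACGTG and 1 GCGTG, and the other LOXL3 window held 1 GCGTG and 2 GGGCGG, so the counts belong to the start chosen. A window was available for 7 of the 10 genes, and not for ELN, EFEMP1 and LOXL2. A match of letters is not a binding site.

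Other genes of elastic fibres and of lysyl oxidase chemistry were taken from a list of 52 set by function, of which 51 (all but MEMO1) were measured and 38 were above background on at least 1 array. Earlier results of these data were known when the list was made, so the adjusted p-values of its genes are given as a description. COL5A1 was known to be lower, so no p-value is given for COL5A1 and its call in these counts is no test. In IL-33 against control 4 of the 51 rose and 7 fell (limma, adjusted over all genes), in ΔNLS against control 10 rose and 12 fell, and in IL-33 against ΔNLS 11 were higher and 12 lower. The shares of all genes called, given above, apply to these counts too.

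Of 20 genes of microfibril and fibre assembly 0 rose, 3 fell and 17 did not pass in IL-33 against control (limma, 2 higher and 5 lower at a p under 0.05 before adjustment). Of all 18132 genes 4760 had such an unadjusted p in that comparison, in either direction. MFAP4, a microfibril-associated glycoprotein, was at 8.52 in the control, at 6.55, 5.77 and 6.29 in the IL-33 clones and at 7.03 and 6.84 in the ΔNLS clones (-2.32 ± 0.29, limma adjusted p = 0.0155, in IL-33). LTBP2, which binds fibrillin 1, fell from 8.94 to 7.87, 7.41 and 7.49 (-1.35 ± 0.20, adjusted p = 0.0221). EMILIN2, an elastin-interface protein, fell from 6.41 to below background in all 5 clones, at least 3.05-fold in each construct (adjusted p = 0.00183 and 0.000782). In ΔNLS against control 4 rose and 7 fell. FBLN2, a fibulin of microfibrils, rose there by 1.41 ± 0.19, from 4.50, below background, to 5.75 and 6.06, or at least 2.15-fold (adjusted p = 0.00489), and LTBP2 fell by 1.41 ± 0.21 (adjusted p = 0.00622).

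Between the constructs, EFEMP2, which encodes fibulin 4, a partner that presents LOX to elastin, was lower in IL-33 than in ΔNLS by 1.24 ± 0.10 (adjusted p = 0.00113). It was at 8.19 in the control, at 7.79, 7.60 and 7.60 in the IL-33 clones and at 8.84 and 8.96 in the ΔNLS clones. The control thus lay between the constructs. FBLN2 was lower as well (-0.94 ± 0.15, adjusted p = 0.00459), whereas LTBP1, which anchors latent TGF-β to microfibrils, was higher by 1.02 ± 0.09 (adjusted p = 0.00121). Of the 20 genes 4 were higher and 7 lower.

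Of 5 genes that process propeptides of LOX, fibrillins and collagens, PCOLCE, the enhancer of the procollagen C-proteinase BMP1, was lower in IL-33 than in the control (-1.53 ± 0.15, adjusted p = 0.00837) and than in ΔNLS (-1.10 ± 0.12, adjusted p = 0.00168). With its probe sets averaged these differences were -0.50 and -0.47. It was at 9.40 in the control, 7.81, 7.95 and 7.87 in the IL-33 clones and 9.11 and 8.83 in the ΔNLS clones. BMP1, the proteinase that also activates LOX, was at 6.31 in the control, 6.75, 6.12 and 6.61 in the IL-33 clones and 7.86 and 8.09 in the ΔNLS clones, and rose in ΔNLS by 1.66 ± 0.27 (adjusted p = 0.00786). FURIN, the convertase that cuts profibrillin, rose in both constructs (0.86 ± 0.15 and 0.90 ± 0.15, adjusted p = 0.0294 and 0.00886). TLL1, a relative of BMP1, was below background on all arrays, so its calls in ΔNLS (-0.66 ± 0.12) and between the constructs (0.37 ± 0.09) rest on signals not above background.

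Of 9 elastin-degrading enzymes 3 rose and 1 fell in IL-33 against control. The 1 that fell was MMP2 (-0.76 ± 0.16, limma adjusted p = 0.0439). CTSS, the elastolytic cathepsin S, read 6.86 in the control, against 8.96, 8.90 and 9.95 in the IL-33 clones (2.41 ± 0.42, adjusted p = 0.0308), but at 7.13 and 7.02 in the ΔNLS clones, and it differed between the constructs by 2.19 ± 0.33 (adjusted p = 0.00423). CTSL, cathepsin L, rose in both, by 1.33 ± 0.17 and 1.16 ± 0.18 (adjusted p = 0.0161 and 0.00677). CTSV, the closely related cathepsin V, rose in both from below background, at least 2.80-fold and 3.31-fold (adjusted p = 0.0172 and 0.00398). MMP14, a membrane-bound metalloproteinase, fell in ΔNLS by 1.10 ± 0.12 (adjusted p = 0.00285) and differed between the constructs by 0.73 ± 0.09 (adjusted p = 0.00238).

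Of 11 fibrillar collagens, which lysyl oxidases also crosslink, 0 rose and 1 fell in IL-33 against control (limma, 0 higher and 4 lower at a p under 0.05 before adjustment). Of all 18132 genes 4760 had such an unadjusted p there, in either direction. The 1 that fell was COL5A1, known beforehand (-2.56 ± 0.43), at 10.41 in the control, 8.47, 7.39 and 7.70 in the IL-33 clones and 10.26 and 10.78 in the ΔNLS clones, so that it too separated the IL-33 clones from all other arrays. COL1A1, COL1A2 and COL5A2 did not pass but lay below the control in every clone of both constructs. Their differences in IL-33 were -3.02 ± 0.77, -1.71 ± 0.45 and -1.78 ± 0.60. In ΔNLS COL27A1 rose from below background, by at least 2.39-fold (adjusted p = 0.00172), and COL11A2 fell to below background, by at least 1.88-fold (adjusted p = 0.00256). Both also differed between the constructs (-1.60 ± 0.11 and 0.89 ± 0.08, adjusted p = 0.000882 and 0.00122). Of 3 measured genes of copper delivery, needed by lysyl oxidases, 0 passed in IL-33 against control in limma, and 0 had a p under 0.05 before adjustment. ATOX1, a copper chaperone, fell in ΔNLS (-0.64 ± 0.14, adjusted p = 0.0188). ATOX1 and SLC31A1, a copper importer, were higher in IL-33 than in ΔNLS (0.45 ± 0.11 and 0.30 ± 0.09, adjusted p = 0.0172 and 0.0377). TGFB1, a classic inducer of matrix genes, fell in both constructs (-0.69 ± 0.11 and -0.52 ± 0.12, adjusted p = 0.0283 and 0.0217). TGFB2 rose in ΔNLS by 0.98 ± 0.18 (adjusted p = 0.0114) and was lower in IL-33 than in ΔNLS (-0.66 ± 0.14, adjusted p = 0.0119).

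**Figure D4:**
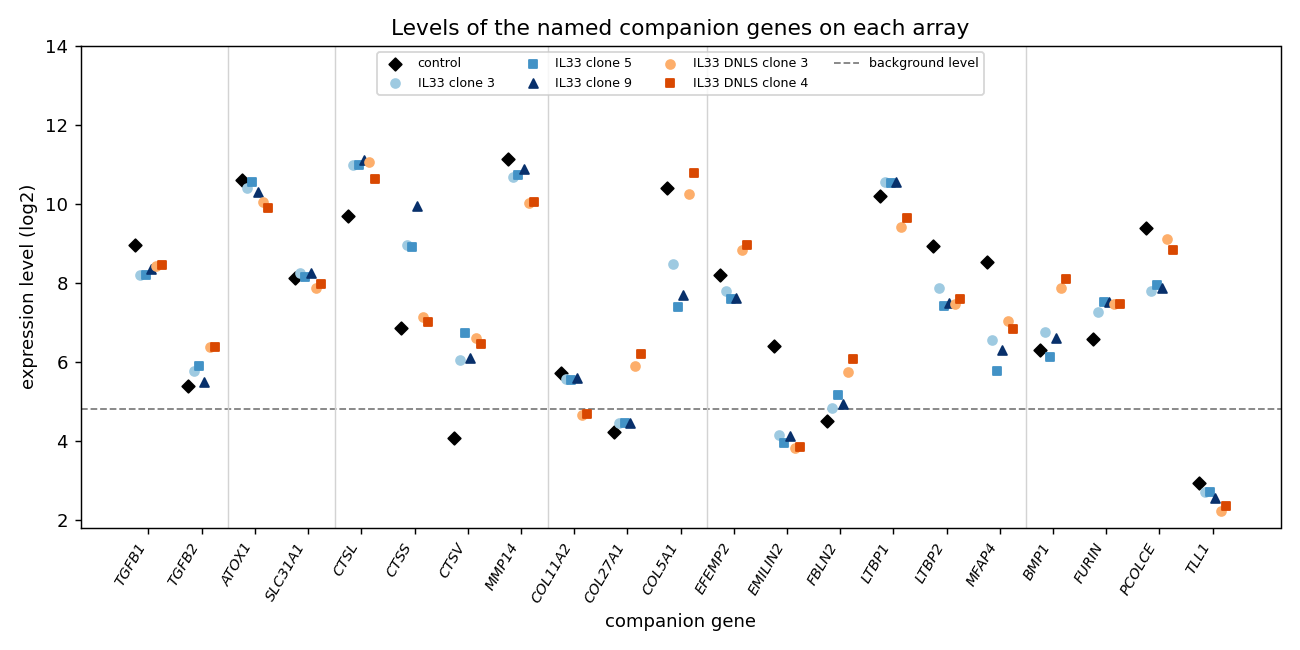
Log2 expression level (y axis) of 21 companion genes (x axis, vertical lines between functional groups) on each of the 6 arrays, 1 point per array, with the background level of 4.80 dashed. PCOLCE and COL5A1 are lower in the IL-33 clones than on every other array, and CTSS is higher in them (8.90 to 9.95 against 6.86 to 7.13).

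All 11 calls of companion genes in IL-33 against control ended without either ΔNLS clone, as every call of that comparison did. Without IL-33 clone 9 the calls of EMILIN2, PCOLCE and CTSS were kept there and the others ended. In ΔNLS against control 8 of 14 named calls ended without ΔNLS clone 3 (ATOX1, CTSV, LTBP2, BMP1, FURIN, TLL1, TGFB2 and TGFB1) and 6 without clone 4 (the same without CTSV and TLL1). Between the constructs 5 of 14 ended without ΔNLS clone 3 and 8 without clone 4, and those of EFEMP2, LTBP1, PCOLCE, COL27A1, COL11A2 and MMP14 were kept without either. That of SLC31A1 also ended without IL-33 clone 3, without IL-33 clone 9 and under quantile normalization, and that of TLL1 without IL-33 clone 3. When the probe sets of each gene were averaged, the calls of FBLN2, BMP1 and TLL1 in ΔNLS against control ended, and so did those of FBLN2, SLC31A1, TLL1 and TGFB2 between the constructs. BMP1 was then at -0.60 between the constructs in place of -1.48, and CTSV at 2.88 in IL-33 against control in place of 2.20.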

How the data were processed

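Total RNA was labelled with a 3′ in vitro transcription kit, hybridised to PrimeView arrays and scanned by the authors. The deposited values are log2 levels, 1 per probe set and array, normalized by the authors. The submitters' processing notes name Partek 6.0. Background correction, normalization and log base are not given in the sources used here. Base 2 was inferred from the range. Arrays have no read depth, and their number limits the precision.

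Probe sets with 1 gene symbol (44994) were used, with symbols updated through a RefSeq table (GRCh38.p14). The probe set with the highest mean stood for a gene. All 6 arrays entered 1 fit with 3 group means in limma 3.58.1 (R 4.3.3, eBayes with trend, two-sided, Benjamini-Hochberg over 18132 genes, 3 residual degrees of freedom). The spread of the control was taken from the clones, so p-values reflect the spread between clone arrays alone, part of which may be technical. The study's methods name a test made for counts, which these values are not. The fit was run on simulated data with some genes raised in the IL-33 arrays, as a check of the code only. Those data held no shift of the ΔNLS arrays and gave the control the same spread as the clones.

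The members and lists were chosen with earlier results of these data known. Named were all members, of each companion group up to 3 genes past the threshold with the smallest adjusted p in each comparison, and for each member with a range of at least 1 the 2 genes with the highest r. MMP2 was named in addition, as the only elastin-degrading enzyme called lower in IL-33 against control. So were COL1A1, COL1A2 and COL5A2, the other collagens lower there at a p under 0.05 before adjustment. Bounds ("at least") set means below 4.80 to that level. Alternatives were the fit restricted to the compared arrays, omission of each clone in turn, eBayes without trend, the mean of all probe sets, quantile normalization, a background filter and levels set to background.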

Additional observations from a re-analysis of the deposited data

Results flagged for a closer look

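LOXL2 and FBLN5 had all IL-33 clones on one side of the control and both ΔNLS clones on the other. How many of all genes had this pattern was not counted, so nothing is read from its presence here. For LOXL2 the mean difference from control was -0.78 in IL-33 and 0.22 in ΔNLS. The direction was shared by all 4 probe sets, with values of -0.52 to -1.13 and 0.17 to 0.59. The difference between the constructs (-1.001 ± 0.41) did not pass the threshold with all arrays and passed without IL-33 clone 5 (-0.57). For FBLN5 the values were 0.0782 and -0.0434, with every array below background, and the difference between the constructs (0.12 ± 0.08) did not pass.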

How the results depend on the processing

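The 10 genes gave 4 calls in IL-33 against control, and 0 with only those arrays in the fit (limma, 4445 of all genes at an unadjusted p under 0.05, 4 of the 10 among them), where the companion genes gave 0 in place of 11 (19 at an unadjusted p under 0.05). Leaving out 1 clone at a time gave 0 to 4 of the 10 and 0 to 13 companions there, 12 to 25 companions in ΔNLS against control in place of 22, and 3 to 9 of the 10 and 10 to 24 companions in IL-33 against ΔNLS in place of 5 and 23. The share of all genes called moved as well, to between 0 and 9.1% in place of 7.65%, between 19.9% and 42.5% in place of 38.3%, and between 26.1% and 46.5% in place of 47.5%. Under eBayes without trend, the mean of all probe sets, quantile normalization and the background filter the counts of the 10 and of the companions stayed within 1.5 times. The background filter, with 12498 genes tested, moved the share of all genes called in IL-33 against control to 13.9% in place of 7.65%. Which genes were called in ΔNLS against control changed. FBN1 was added under quantile normalization, in the fit of only those arrays, without IL-33 clone 3 and without IL-33 clone 5 (4 calls each). With the mean of all probe sets LOX was replaced by FBN1. The call of LOX ended there without ΔNLS clone 3 and without ΔNLS clone 4 (differences of -0.64 and -0.66). In IL-33 against ΔNLS the call of LOX ended under quantile normalization and without IL-33 clone 9. The calls of LOX and FBN1 ended there without ΔNLS clone 3 and without ΔNLS clone 4. Averaging all probe sets ended the call of FBN1 and added LOXL2. LOXL4 was not tested under the background filter. Of the 10 genes, none called with all arrays changed its sign, under the alternatives run, in the comparison in which it was called. Differences not called did so, among them LOXL3 in ΔNLS against control (-0.02, and 0.02 under quantile normalization) and FBN2 in IL-33 against ΔNLS (0.63, and -0.18 without IL-33 clone 3). Averaging all probe sets gave -0.17 for LOX and -1.76 for FBN1 in ΔNLS. No paired analysis was possible because each clone is a line of its own. The clones numbered 3 of the 2 constructs are not a pair.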
